A study of Mus musculus with 6 samples.

Results

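Integrins are cell surface receptors made of an alpha and a beta chain, and laminins are basement membrane proteins made of an alpha, a beta and a gamma chain. The genes described here are the rows of the deposited count table named as integrin alpha, integrin beta or laminin chains, together with 5 genes that link laminin networks to each other and to the cell: Nid1, Nid2, Hspg2, Dag1 and Agrn. The rule found 30 such genes among the 25189 gene symbols of the table: 11 integrin alpha genes, 7 integrin beta genes, 7 laminin genes and the 5 linkers. Chain genes without a row, among them Itga8, Itgb6 and Lama1, were not analysed here.

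The tissue is kidney from male C57BL/6 mice, wild type, sampled at day 2 following ischaemia-reperfusion (I/R), in which the blood flow of the kidney is stopped and then restored. All 6 libraries carry that injury, and no uninjured group is compared here. In 3 libraries I/R was the only treatment, and in 3 it was combined with chemerin-9 (C9 in the sample titles). The treatment labels of those 3 instead give C9, C10 and C11, and all 3 were taken as chemerin-9 from their titles. Chemerin-9 is a short peptide agonist of the chemerin receptor derived from the end of the chemerin protein. The sources used here state neither its dose and route nor whether the libraries are from separate mice. The p-values therefore measure only how these libraries spread, and that spread may be technical. The labels name the treated libraries S-1 to S-3, whereas the other columns of the table beside those of I/R are named IC, so the library names do not match the columns. IC was read as I/R and chemerin-9 from the sample titles, its numbers were matched to those of the titles, and every direction below rests on that reading.

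An integrin alpha chain largely sets which ligand is bound, and the beta chain carries the signal to the actin skeleton through talin, kindlin and filamin. Itgb1 pairs with most alpha chains, so its receptors cover collagen, fibronectin and laminin. Laminins polymerise outside the cell, nidogens tie them to type IV collagen, perlecan and agrin bridge them to other partners, and dystroglycan holds them at the cell surface. In the kidney, laminins of the alpha 5, beta 2 and gamma 1 chains make up the mature filtration barrier, and beta 1 chains are typical of developing and mesangial matrix.

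The libraries held 11217252 to 16938301 counts, and levels are given in CPM, the counts that a gene would have in a library of 1000000 counts after scaling. Between libraries of 1 group the chi-square per degree of freedom was 1.82 to 6.25, and the highest values, 6.25 and 5.70, were both of I/R replicate 3. Markers of the labelled tissue were weak: 8 of 16 nephron markers had a row, and their levels summed to 36.7 to 39.02 CPM in I/R alone and 38.9 to 46.4 CPM with chemerin-9. The 5 endothelial markers with a row summed to 1.71 to 2.18 CPM and 2.18 to 4.05 CPM, and the 5 leukocyte markers to 4.67 to 6.09 CPM and 4.53 to 6.78 CPM. None of these 18 markers was at 0 in all 6 libraries, although the neutrophil gene Ly6g had only 1 count, in I/R replicate 3, and 0 in every other library. Mesenchymal markers were abundant, at 2688 to 2814 CPM summed over 8 genes in I/R alone and 2135 to 2215 CPM with chemerin-9, but did not move 1 way. Vim, which holds most of that difference, fell from a mean of 1366 to 853 CPM, and Acta2 and Col1a2 fell too, whereas Pdgfrb (log2FC 0.49, adjusted p = 2.9e-05 by edgeR) and Col3a1 (log2FC 0.45, adjusted p = 0.0023 by edgeR) rose. Col1a1, Pdgfra and S100a4 were not called. Their part in the changes below was not tested. The 6 genes of cell division summed to 3693 to 3839 CPM and 3649 to 3755 CPM. In such tissue samples, fewer cells of a type and less RNA per cell cannot be told apart. Each library also has its own batch value in the labels, so batch and treatment cannot be told apart.

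Chemerin-9 went with lower levels of 5 of the 7 laminin genes with a row, of agrin and of the fibronectin receptor chain Itga5. It went with higher levels of Lamb1, Nid1 and, slightly, Itgb1. Of the 30 genes, 28 passed the filter on low counts and were tested with edgeR's quasi-likelihood test, Benjamini-Hochberg adjusted over all 14184 genes tested. A gene was called changed at an adjusted p under 0.05. Changes are given as log2FC, the log2 fold change of chemerin-9 with I/R over I/R alone, and SE is its standard error. By that rule 19 of the 28 changed, 9 higher and 10 lower, where 51.7% of all tested genes changed (25.6% higher and 26.1% lower). Without I/R replicate 3 the number was 17, with 6 higher and 11 lower, and without chemerin-9 replicate 3 it was 15, with 5 higher and 10 lower. With all libraries but without Itga10, which passed the filter through its chemerin-9 libraries, 18 of 27 genes changed, 8 higher and 10 lower.

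Most changes were small. Only 5 of the 28 genes changed by 1.5-fold or more, among them Agrn, Itga7, Itga10 and Lamb3, where 15.9% of all tested genes did. The median of the absolute log2 fold change was 0.36 over the 28 genes and 0.27 over all tested genes, and the signed medians were 0.0017 and -0.0037. The share called was higher at higher levels, over all genes as well. Among genes over 100 CPM, 71.9% of all tested genes changed, and 10 of the 12 integrin, laminin and linker genes did. Between 10 and 100 CPM it was 59.2% of all and 5 of 5. Under 10 CPM it was 30.4% of all and 4 of 11, with Itga10 among these 4. The values of the 3 libraries of each group did not overlap in 22 of the 28 genes, 11 higher and 11 lower with chemerin-9, against 58.5% of all tested genes. Without Itga10, 10 genes lay higher and 11 lower without overlap, and 4 of 27 genes changed by 1.5-fold or more.

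**Figure D1:**
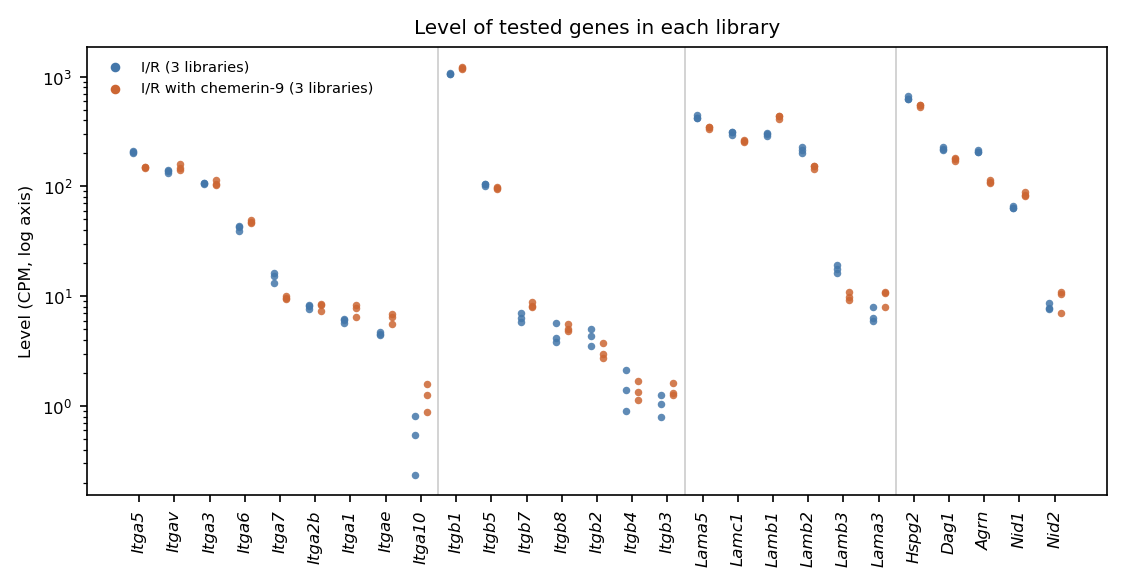
Level in CPM on a log axis (vertical) of 27 of the 28 tested genes (horizontal), with 1 point per library, blue for I/R and orange for I/R with chemerin-9, in blocks of integrin alpha, integrin beta, laminin and linker genes. Itgb1 stands above all others at 1049.6 to 1212 CPM, and 12 genes lie over 100 CPM while 11 lie under 10 CPM.

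The beta chain shared by most receptors was the most abundant gene of the set. Per kilobase of exon, Itgb1 held 260.4 CPM in I/R, and the next gene, Hspg2, held 44.3 CPM per kilobase. Itgb1 was at 1078, 1049.6 and 1061 CPM in I/R alone and at 1207, 1174 and 1212 CPM with chemerin-9. Its groups did not overlap, and the rise was 1.13-fold (log2FC 0.17, SE 0.03, adjusted p = 8.9e-05 by edgeR). With a trend on GC content and transcript length taken out, log2FC was 0.11 (adjusted p = 0.0025). Of all integrin beta counts in the table, Itgb1 took 89.6% to 89.9% in I/R alone and 90.97% to 91.4% with chemerin-9.

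Among the alpha chains that recognise the RGD sequence of fibronectin and vitronectin, Itga5 fell and Itgav went the other way. Itga5, the alpha chain of the classical fibronectin receptor, was at 209, 200.007 and 205 CPM in I/R alone and at 151, 150.2 and 146 CPM with chemerin-9. All 3 treated libraries lay well under all I/R libraries. The fall was 1.37-fold (log2FC -0.46, SE 0.04, adjusted p = 1.1e-07 by edgeR). Itgav, which pairs with several beta chains to bind vitronectin and latent TGF-beta, was at 137, 139 and 132 CPM in I/R alone and at 159, 148 and 142 CPM with chemerin-9. The groups did not overlap, chemerin-9 replicate 1 was the highest library, and the log2FC of 0.14 (adjusted p = 0.021 by edgeR) was 0.089 (adjusted p = 0.13) without that library. With the GC and length trend taken out it was 0.018 (adjusted p = 0.77). Itga2b, the platelet fibrinogen receptor chain, was at 7.65 to 8.37 CPM in I/R alone and 7.27 to 8.40 CPM with chemerin-9 and did not pass (adjusted p = 0.95 by edgeR). Of the other 4 platelet markers, Gp1ba was at a mean of 1.85 CPM in I/R alone and 1.58 CPM with chemerin-9 (adjusted p = 0.58 by edgeR), Ppbp had 0 to 7 counts per library, and Pf4 and Gp9 had 0 to 2, with 0 in every I/R library.

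The count ratio of Itga5 to Itgb1, which does not depend on the library scaling, separated the groups. It was 0.194, 0.191 and 0.193 in I/R alone and 0.125, 0.128 and 0.121 with chemerin-9. The ratio of Itgav to Itgb1 did overlap, at 0.125 to 0.133 and 0.117 to 0.132. These pairs and those given below were chosen after the levels were seen, and their ratios are a description.

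Among the laminin-binding alpha chains 1 fell, 1 rose and 1 did not pass. Itga7, best known as the laminin receptor of muscle, was at 15.3, 16.4 and 13.05 CPM in I/R alone and at 9.33, 9.58 and 10.002 CPM with chemerin-9, a 1.54-fold fall (log2FC -0.62, SE 0.12, adjusted p = 4.2e-04 by edgeR). Of the 2 muscle markers with a row, Acta1, a muscle actin, fell from a mean of 8.93 to 2.91 CPM (log2FC -1.62, adjusted p = 2.0e-06 by edgeR), and Des, which encodes desmin, was at 6.51 and 7.87 CPM with groups that overlap (log2FC 0.27, adjusted p = 0.16 by edgeR). Their part in the fall of Itga7 was not tested. Itga6, which pairs with Itgb1 or with the hemidesmosomal Itgb4, was at 42.4, 43.4 and 39.1 CPM in I/R alone and at 46.4, 46.9 and 49.1 CPM with chemerin-9. Its rise was small, at a log2FC of 0.19 (adjusted p = 0.018 by edgeR). DESeq2 did not call it (adjusted p = 0.077), nor did edgeR without replicate 3 of I/R (0.082) or of chemerin-9 (0.081), and its alternatives gave 0.013 to 0.082. Itga3, the main laminin receptor chain of podocytes and tubules, showed a log2FC of 0.016 (SE 0.05, adjusted p = 0.80 by edgeR), with 105 to 107 CPM in I/R alone and 103 to 114 CPM with chemerin-9.

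Of the collagen-binding alpha chains, the 3 with a row were weak, and Itga2 had no row. Itga1 was at 5.72 to 6.13 CPM in I/R alone and 6.49 to 8.28 CPM with chemerin-9 and did not pass (log2FC 0.33, adjusted p = 0.076 by edgeR), although it did without chemerin-9 replicate 2 (0.040). Itga10, a chain of cartilage, passed at 0.53 ± 0.29 against 1.24 ± 0.34 CPM (SD, n = 3 each), a 2.26-fold rise (SE 0.44 on the log2 scale, adjusted p = 0.035 by edgeR). Its counts were 3, 11 and 9 in I/R alone and 18, 12 and 18 with chemerin-9. It passed the filter on low counts through its chemerin-9 libraries, and a stricter filter left it out. The call was lost without replicate 1 or 3 of either group (adjusted p = 0.054 to 0.13) and with DESeq2 (0.12). Its exons also share 1739 bases with a predicted gene on the same strand, so its counts are uncertain. Itga11 stayed under the filter with 1 to 10 counts per library.

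The integrin genes of leukocytes with a row were all weak, and of the 3 that were tested 2 rose and 1 did not pass. Itgae, the alpha chain of resident T cells, was at 4.54, 4.38 and 4.67 CPM in I/R alone and at 6.45, 5.60 and 6.92 CPM with chemerin-9 (log2FC 0.48, SE 0.16, adjusted p = 0.020 by edgeR). Its partner Itgb7 was at 7.05, 6.32 and 5.83 CPM and at 7.93, 8.92 and 8.18 CPM (log2FC 0.39, SE 0.14, adjusted p = 0.029 by edgeR). For both genes the groups did not overlap, and both calls were lost with DESeq2 (adjusted p = 0.10 and 0.13), without replicate 3 of chemerin-9 (0.090 and 0.058) and without replicate 2 of I/R (0.055 and 0.064). The Itgae call was also lost without chemerin-9 replicate 1 (0.053), and the Itgb7 call without replicate 2 of chemerin-9 (0.098) or replicate 3 of I/R (0.098). The values over all alternatives were 0.017 to 0.10 for Itgae and 0.0071 to 0.13 for Itgb7. Itgb2, the common beta chain of leukocytes, pointed down at 3.52 to 5.01 against 2.73 to 3.71 CPM and did not pass (log2FC -0.43, adjusted p = 0.10 by edgeR), although it did without I/R replicate 3 (0.039). The leukocyte markers named above overlapped between the groups.

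Itgad, a beta 2 partner found on macrophages, had 2, 0 and 0 counts in the I/R libraries and 16, 5 and 9 with chemerin-9. It was under the filter, so the main test did not cover it. Scaled to library size, the ratio of its 30 counts to its 2 counts was 16.3, with an exact 95% interval of 4.13 to 141 that covers counting error only. With no filter on low counts it passed (adjusted p = 9.3e-05 by edgeR). In the authors' deposited table its log2 fold change was 4.04 with an FDR of 0.0073. On the same strand the exons of Itgad share 330 bases with Gm17831, which has no row. On the other strand its exons share 388 bases with 4931431B13Rik, at a mean of 0.026 CPM in I/R alone and 0.31 CPM with chemerin-9, and 70 bases with Cox6a2, which fell from 43.8 to 27.9 CPM. The sources used here do not state whether counting used the strand, and the overlap with Gm17831 holds either way, so counts of Itgad are uncertain.

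The remaining beta chains did not pass. Itgb5, a vitronectin receptor chain measured at 101 to 104 CPM in I/R alone and 94.8 to 99.5 CPM with chemerin-9, had a log2FC of -0.095 (SE 0.04, adjusted p = 0.076 by edgeR), which became 0.0068 with the GC and length trend taken out. Itgb8, an activator of TGF-beta, was at 3.82 to 5.64 and 4.83 to 5.60 CPM (adjusted p = 0.40 by edgeR). Itgb3 and Itgb4 lay between 0.789 and 2.11 CPM in every library, with adjusted p-values of 0.26 and 0.89 by edgeR. In all, 2 of 7 tested beta genes rose and none fell. Of 9 tested alpha genes 4, Itga10 among them, rose and 2 fell. Together the integrins gave 8 calls among 16 tested genes, against the 51.7% of all tested genes.

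**Figure D2:**
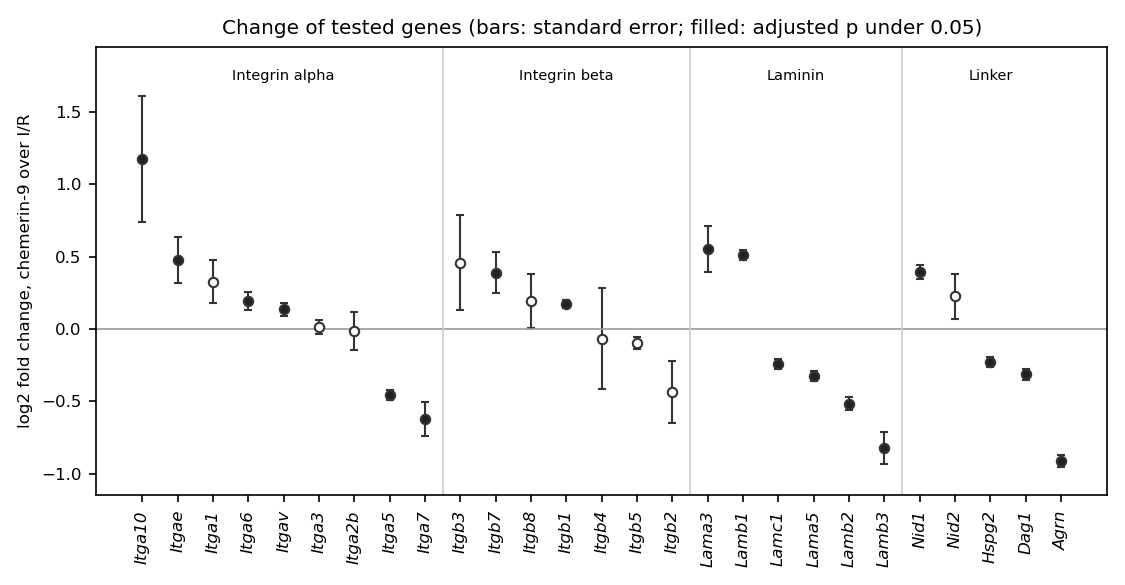
Log2 fold change of I/R with chemerin-9 over I/R (vertical) of 27 of the 28 tested genes (horizontal), by class and sorted within it. Points are edgeR estimates with their standard error, filled for an adjusted p under 0.05. The 6 laminin genes drawn are all filled, 4 of them under 0, whereas 2 of 7 integrin beta genes are.

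All 7 laminin genes changed, 5 lower and 2 higher, where 51.7% of all tested genes changed, and 71.9% of those over 100 CPM. Lama5, the alpha chain of most mature kidney laminins, was at 450.5, 420.4 and 422 CPM in I/R alone and at 349, 349 and 336 CPM with chemerin-9 (log2FC -0.32, SE 0.04, adjusted p = 3.0e-06 by edgeR). Lamc1, the gamma chain of nearly all of them, was at 310.2, 312 and 296 CPM and at 254, 262 and 259 CPM (log2FC -0.24, SE 0.03, adjusted p = 3.6e-05 by edgeR). For both genes the groups did not overlap. The count ratio of Lama5 to Lamc1 overlapped between the groups, at 1.35 to 1.45 in I/R alone and 1.30 to 1.37 with chemerin-9.

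The laminin beta genes went in opposite directions. Lamb1, the beta chain of embryonic and mesangial laminins, was at 301, 305 and 289.6 CPM in I/R alone and at 433, 435 and 407 CPM with chemerin-9. Lamb2, which takes its place in mature glomerular and muscle basement membrane, was at 229, 202 and 214 CPM in I/R alone and at 153, 154 and 145 CPM with chemerin-9. Neither gene's groups overlapped. Lamb1 rose 1.42-fold (log2FC 0.51, SE 0.04, adjusted p = 3.2e-08 by edgeR) and Lamb2 fell 1.43-fold (log2FC -0.51, SE 0.05, adjusted p = 3.6e-07 by edgeR). Over the 16 alternatives the log2 fold change lay between 0.49 and 0.54 for Lamb1 and between -0.56 and -0.43 for Lamb2. The count ratio of Lamb1 to Lamb2 was 1.32, 1.51 and 1.35 in I/R alone and 2.84, 2.83 and 2.81 with chemerin-9. Lamb1 lies at chromosome 12, 31265234 to 31329644, and Lamb2 at chromosome 9, 108479736 to 108490530 (GRCm38).

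Lama3 and Lamb3, chains of the epithelial laminin of hemidesmosomes, were present at low levels and went in opposite directions. Lamb3 was at 16.3, 17.6 and 19.1 CPM in I/R alone and at 9.24, 10.98 and 9.72 CPM with chemerin-9, a 1.77-fold fall (log2FC -0.82, SE 0.11, adjusted p = 2.0e-05 by edgeR). This was the largest fall among the laminin genes, with no overlap between the groups. Lama3 instead rose, from 7.91, 6.39 and 5.95 CPM to 10.6, 10.98 and 7.97 CPM (log2FC 0.55, SE 0.16, adjusted p = 0.0093 by edgeR). The highest I/R library and the lowest chemerin-9 library nearly met, and the call was lost without chemerin-9 replicate 2 (adjusted p = 0.056), and its alternatives gave 0.0012 to 0.056. The epithelial markers with a row were Krt8, at 0.378 and 0.376 CPM, and Krt19, which was at 12.1, 10.7 and 13.05 CPM in I/R alone and at 16.04, 17.3 and 13.9 CPM with chemerin-9 (log2FC 0.39, adjusted p = 0.011 by edgeR). Their part in the laminin changes was not tested.

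Of the linkers, agrin changed most. Agrn, the heparan sulphate proteoglycan that binds laminin and dystroglycan, was at 206, 206 and 214 CPM in I/R alone and at 108, 115 and 110.4 CPM with chemerin-9. The groups lay far apart, and the fall was 1.88-fold (log2FC -0.91, SE 0.04, adjusted p = 1.7e-10 by edgeR). Hspg2, which encodes perlecan, another heparan sulphate proteoglycan of basement membranes, was at 660 CPM in its highest I/R library and 620 CPM in its lowest, and at 524 to 553 CPM with chemerin-9 (log2FC -0.23, SE 0.03, adjusted p = 5.4e-05 by edgeR). The count ratio of Agrn to Hspg2 was 0.313, 0.331 and 0.345 in I/R alone and 0.195, 0.21 and 0.211 with chemerin-9, with no overlap. Agrn lies at chromosome 4, 156165290 to 156197488 (GRCm38).

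Dystroglycan fell and nidogen 1 rose. Dag1, whose product is cut into the laminin-binding and the membrane-spanning part of dystroglycan, was at 221, 227 and 214 CPM in I/R alone and at 183, 178 and 172 CPM with chemerin-9 (log2FC -0.31, SE 0.04, adjusted p = 9.0e-06 by edgeR). Nid1, the nidogen that binds the laminin gamma 1 chain, was at 63.7, 64.04 and 66.5 CPM in I/R alone and at 82.4, 83.2 and 89.7 CPM with chemerin-9 (log2FC 0.39, SE 0.05, adjusted p = 1.2e-05 by edgeR). Nid1 thus rose 1.31-fold while Lamc1 fell, and their count ratio was 0.205, 0.206 and 0.225 in I/R alone and 0.325, 0.318 and 0.346 with chemerin-9. Nid2, its relative, was at 7.67 to 8.74 and 7.06 to 10.8 CPM and did not pass (log2FC 0.23, adjusted p = 0.24 by edgeR), although it did without chemerin-9 replicate 1 (0.036). The exons of Nid2 share 437 bases with Rtraf on the other strand, which at 112 and 93.4 CPM is far more abundant, so counts of Nid2 are uncertain.

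**Figure D3:**
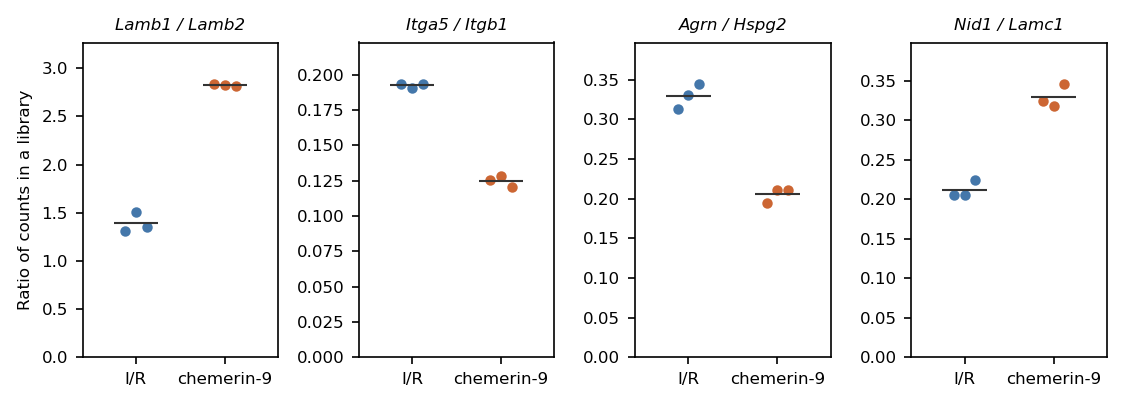
Ratio of the counts of 2 genes within each library (vertical, from 0) in I/R and in I/R with chemerin-9, for Lamb1 over Lamb2, Itga5 over Itgb1, Agrn over Hspg2 and Nid1 over Lamc1. Points are libraries and the line is their mean. The groups do not overlap in any of these pairs, and Lamb1 over Lamb2 goes from a mean of 1.39 to 2.82. The pairs were chosen after the levels were seen, so their separation is a description. Itgav over Itgb1 and Lama5 over Lamc1, which overlapped, are not drawn.

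The start regions of the laminin beta genes, which moved in opposite directions, are shown beside those of Lama5 and of Agrn, which had the smallest adjusted p of the 28 genes. Each is the RefSeq window before the gene's start (GRCm38.p6), read on the gene's strand and ended before the first base that GENCODE M21 annotates as exon. It spans 191 bases for Lamb1 and 124 for Lamb2, and the whole window for the others. Capitals mark the GC box GGGCGG, which Sp1-type factors bind, and the CCAAT box CCAAT, on either strand.
Lamb1, chr12:31265043-31265233, forward strand: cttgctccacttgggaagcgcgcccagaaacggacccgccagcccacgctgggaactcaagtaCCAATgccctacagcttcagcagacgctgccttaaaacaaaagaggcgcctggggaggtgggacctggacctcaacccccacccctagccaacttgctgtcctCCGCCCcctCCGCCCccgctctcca
Lamb2, chr9:108479612-108479735, forward strand: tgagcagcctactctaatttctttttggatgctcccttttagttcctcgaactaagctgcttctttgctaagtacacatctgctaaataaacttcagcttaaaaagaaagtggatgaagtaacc
Lama5, chr2:180225860-180226109, reverse strand: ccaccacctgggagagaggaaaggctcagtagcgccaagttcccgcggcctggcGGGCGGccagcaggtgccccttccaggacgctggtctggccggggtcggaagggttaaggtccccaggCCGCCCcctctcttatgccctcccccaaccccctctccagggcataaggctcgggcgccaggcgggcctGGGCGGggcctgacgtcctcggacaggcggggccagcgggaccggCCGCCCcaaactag
Agrn, chr4:156197489-156197738, reverse strand: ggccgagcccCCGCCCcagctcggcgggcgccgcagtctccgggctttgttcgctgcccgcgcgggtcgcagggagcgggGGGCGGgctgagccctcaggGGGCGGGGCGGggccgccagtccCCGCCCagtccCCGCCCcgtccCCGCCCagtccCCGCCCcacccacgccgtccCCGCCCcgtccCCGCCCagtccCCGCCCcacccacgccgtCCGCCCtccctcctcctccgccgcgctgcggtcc
The Agrn stretch holds 12 GC boxes, Lama5 holds 4, and Lamb1 holds 2 and a CCAAT box, while Lamb2 holds neither motif. Agrn has another RefSeq window, at chr4:156186260-156186509, which is not shown and holds 2 GC boxes. The shares below were counted over whole RefSeq windows of 250 bases, annotated exon included. These were found for 19 of the 30 genes, 23 windows in all since some genes have several starts. The Dag1 windows overlap, so the same GC boxes and a CCAAT box were counted in both. A GC box was in 13 of these 23 (56.5%) and in 32.7% of all 32851 windows, and a CCAAT box in 6 and in 33.8%. The TATA box TATAAA and the AP-1 motif TGANTCA were in none of the 23, against 12.4% and 6.75% of all windows, and the TEAD motif GGAATG was in 4, against 12.6%. The heat shock element GAANNTTC was in 1 and the interferon-stimulated response element in 2, against 6.69% and 2.98%. Every motif was searched on both strands and matches may overlap. The windows of these genes had a median GC content of 62.4%, against 52.4% for all.

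The genes around these receptors and matrix proteins were followed in 7 lists. Their counts are to be read against the 51.7% of all tested genes that changed, 25.6% higher and 26.1% lower. That share depends on level: 30.4% under 10 CPM, 59.2% from 10 to 100 CPM and 71.9% over 100 CPM. The lists were not matched to it by level. The adhesion complex list holds the proteins that join integrins to actin and signal from them. Of its 35 tested genes 9 rose and 14 fell, with a median log2 fold change of 0.0056. Filamins and an actin regulator were among those that fell: Flnc was at 561, 540.5 and 572 CPM in I/R alone and at 304, 299.8 and 295 CPM with chemerin-9 (log2 fold change -0.90), and Vasp and Flna fell by 0.81 and 0.38 on the log2 scale. Talin 1 (Tln1), which activates integrins, did not pass (log2FC -0.075, adjusted p = 0.065 by edgeR), and the focal adhesion kinase gene Ptk2 was at 261 to 283 CPM in I/R alone and 265 to 281 CPM with chemerin-9 (adjusted p = 0.92). Tln1 and Ptk2 were chosen for their role after their values were seen.

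Among the other integrin ligands 8 of 13 tested genes fell and 3 rose, with a median log2 fold change of -0.26, where 26.1% of all tested genes fell and 25.6% rose. The matricellular ligands Ccn1 and Ccn2 fell by 1.67 and 1.83 on the log2 scale, and Tnc, which encodes tenascin C, from 161, 164 and 159 CPM to 108, 97.9 and 99.5 CPM. Fbn1, the fibrillin gene, rose from 131, 133 and 124 CPM to 251, 240.4 and 241 CPM. Fibronectin itself (Fn1), named because it is the ligand of the Itga5 receptor, fell by 0.13 on the log2 scale (adjusted p = 6.8e-04 by edgeR); it was named after its values were seen.

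In the other basement membrane list 3 of 11 tested genes rose and 3 fell, with a median of -0.016. Col4a4, a type IV collagen chain of the mature glomerular membrane, rose from 19.1, 20.3 and 18.99 CPM to 36.6, 28.8 and 31.3 CPM, and Tinagl1 rose by 0.30 on the log2 scale. The peroxidasin gene Pxdn, whose enzyme crosslinks type IV collagen, and Ntn4, a netrin that binds laminin gamma chains, fell by 0.35 and 0.62.

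The dystroglycan partner list had 2 genes higher and 2 lower of 9 tested (median 0.061), and so had the 9 tested genes of dystroglycan glycosylation (median -0.024). Dtna, which encodes the cytoplasmic partner dystrobrevin alpha, fell by 0.59 on the log2 scale and its relative Dtnb rose by 0.20, while Utrn fell by 0.14 and Sntb2 rose by 0.23. In the glycosylation list Gmppb, whose enzyme makes a sugar donor, fell by 0.68.

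Of the 3 hemidesmosome genes with a row, Plec, which ties integrins to intermediate filaments, fell from 761.5, 720.4 and 767 CPM to 471, 473 and 462 CPM, Dst fell by 0.17 on the log2 scale and Cd151 rose by 0.53. Cd151 also belongs to the tetraspanin list, whose proteins sit beside integrins in the membrane and where 3 of 6 tested genes rose and 2 fell (median 0.18). Cd63 and Cd47, a protein that associates with Itgav receptors, rose by 0.36 and 0.34, and Cd9 fell by 0.24. All genes given as risen or fallen in these lists had an edgeR adjusted p under 0.05. Over all lists 55 of 85 tested genes changed, against 51.7% of all tested genes, 59.2% of those from 10 to 100 CPM and 71.9% of those over 100 CPM.

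**Figure D4:**
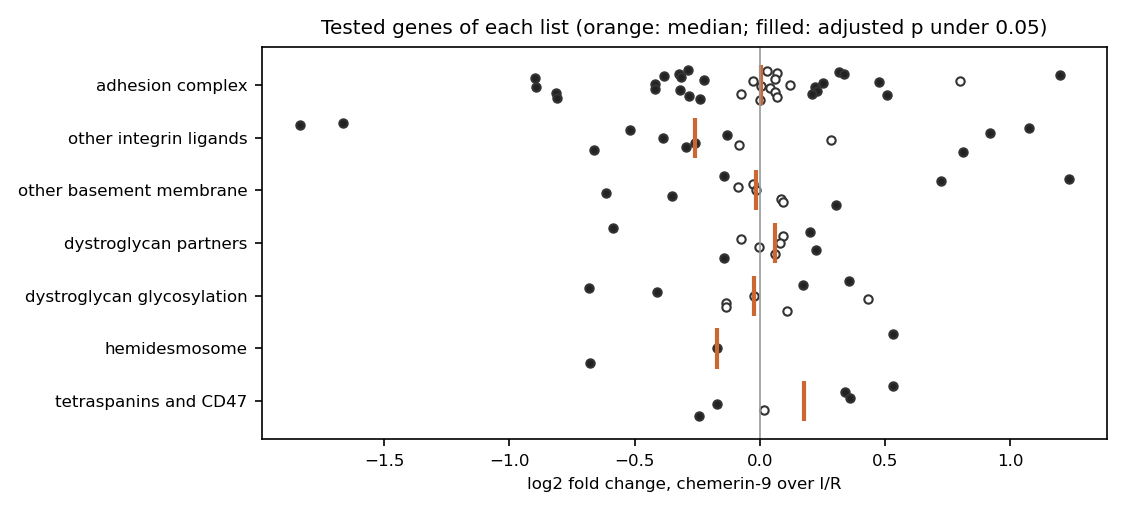
Log2 fold change of I/R with chemerin-9 over I/R (horizontal) of every tested gene in 7 lists (vertical), filled for an adjusted p under 0.05, with the list median in orange. The medians lie between -0.26 for other integrin ligands and 0.18 for tetraspanins, and every list has genes on both sides of 0.

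The authors' deposited table gives an FDR under 0.05 to 16 of the 30 genes, 6 higher and 10 lower with chemerin-9. By annotation, 4 of the 30 genes share 50% or more of the shorter of 2 transcripts, at 95% identity or higher, with another gene: Itga6, Itgb2, Itgb5 and Nid1. The copies with a row, those of Itga6, Itgb2 and Itgb5, held at most 0.82 CPM in either group.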

How the data were processed

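RNA-seq was made from 6 libraries of kidney tissue, 3 per group. Per the labels' protocols, a Vazyme stranded mRNA kit was used. The submitters' processing notes name HISAT2, HTSeq, DESeq 1.18.1 and mm10; the annotation and strand setting were not given in the sources used here. A table deposited by the authors held raw counts per gene symbol, and 4 columns of a comparison by the authors: a log2 value, its linear fold, a p-value and an FDR. Of 25216 rows, 27 repeats were removed; 30 of 30 gene positions matched GENCODE M21 (GRCm38). Groups were taken from titles, which give C9 for all treated samples, although their treatment labels give C9, C10 and C11. Columns named IC were taken to be I/R with C9, although the labels name those libraries S.

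The test was edgeR 4.0.16 under R 4.3.3 (TMM size factors, filterByExpr, quasi-likelihood fit on group, Benjamini-Hochberg over 14184 genes). A standard error is the log2 fold change divided by the square root of F. Levels per kilobase use the union of exons. The tested genes held at least 99.8% of counts, and a gene at the median had 295 counts in the shallowest library. Copies were searched with BLAST 2.17.0. The fit was tested on simulated data. Alternatives were other size factors and filters, DESeq2 1.42.0, limma-voom (limma 3.58.1), a replicate block, each library left out, a threshold of 0.1, mitochondrial and 18S rows left out, and a GC and length trend removed. The genes, lists and motifs were chosen with earlier results of these data known. Named were the genes of the rule and up to 4 called genes with the smallest p of each list, besides those said to be chosen otherwise; some of these genes are counted but not reported here by name.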

Additional observations from a re-analysis of the deposited data

How the results depend on the processing

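Of the 19 changed genes, 13 passed under all 16 alternatives, 6 lost the call in at least 1 and none changed direction. The threshold of 0.1, counted among the 16, could neither take a call away nor change a direction. The number of changed genes lay between 15 and 21, that of rises between 5 and 10, and that of falls at 10 or 11. With no filter on low counts it was 20 of 30 genes, Itgad among them. Leaving out 1 library gave 15 to 18 changed genes, 5 to 8 rises (5 without chemerin-9 replicate 3) and 10 to 11 falls, and 6399 to 7323 genes over all. DESeq2, which covered all 30 genes, gave 16 changed genes, 6 of them higher, with Itgad among these 6. It did not call the rises of Itga6, Itga10, Itgae and Itgb7. The sign changed only in genes that did not pass. With 1 library left out, log2FC ranged from -0.052 to 0.053 for Itga2b, from -0.033 to 0.043 for Itga3 and from -0.32 to 0.26 for Itgb4. Taking out the GC and length trend gave 0.10 for Itga2b, 0.022 for Itgb4 and 0.0068 for Itgb5. Upper-quartile size factors gave 0.0016 for Itga2b, and limma-voom 0.0056 for Itgb4. The cause was not tested. The median level per kilobase over the 30 genes in I/R was 2.49 CPM by exon union and 3.67 CPM by the longest transcript, and the order of Lamb1 rests on that choice (30.1 against 51.6 CPM per kilobase). Same-numbered libraries correlated at 0.10, -0.052 and 0.042 in their deviations from the group means. These values do not settle whether the libraries were paired, which the sources used here do not state. The replicate block gave 19 changed genes, as without it, and 7300 over all genes against 7336. Depth limits the 11 tested genes under 10 CPM and the 2 under the filter.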
